A study of Mus musculus with 4 samples.

Results

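In the left ventricle of male mice (C57BL6, 10 to 12 weeks old), acetylated histone H3 was profiled with 1 library per group. By the authors' calls, 638 autosomal regions were lower in treated pressure overload than in either of its controls. They were chosen from the deposited lists as regions lower in TAC TSA than in Sham TSA that share at least 1 bp with a region lower in TAC TSA than in TAC Veh. In addition, they overlap no region that was lower or higher in TAC Veh than in Sham Veh. They make up 638 of the 5230 regions of the first list on chromosomes 1 to 19 (12.2%), and 18266 regions stand in the 6 lists together.

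TAC is transverse aortic constriction, in which the aortic arch is narrowed so that the heart pumps against a raised pressure, and Sham animals had a control operation. TSA is trichostatin A, an inhibitor of histone deacetylases, given in DMSO, and Veh is DMSO alone. The drug was injected under the skin, 2 times a day over 4 weeks, to a daily dose of 0.6 mg/kg. TAC TSA, TAC Veh, Sham TSA and Sham Veh, the 4 groups, had 1 library each of chromatin precipitated with an antibody against acetylated H3. No value below therefore has a replicate, and how many ventricles went into a library is not given in the sources used here. An earlier deposit is cited in the labels for the 2 Sham libraries but not for the 2 TAC libraries, and any difference that goes with that deposit cannot be told apart from surgery. The promoters of the 10 cardiomyocyte markers examined all carried reads. That of Myh6, the adult cardiac myosin heavy chain, had 497 raw counts in TAC TSA, 289 in TAC Veh, 665 in Sham TSA and 553 in Sham Veh. The libraries differ in depth. After the scaling described further down, the Myh6 counts were 614.4 in TAC TSA, 283.1 in TAC Veh, 597.7 in Sham TSA and 508.1 in Sham Veh.

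Histone acetyltransferases add acetyl groups to the tails of H3, and histone deacetylases remove them. Acetylated H3 marks open chromatin at active promoters and enhancers, and in heart tissue the signal sums over cardiomyocytes, fibroblasts, endothelial cells and immune cells. An inhibitor of deacetylases is known to raise bulk histone acetylation, while individual loci can gain or lose it.

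The sequence of the regions themselves is not shown, because no mm9 genome was used here, and for the same reason regions are named by position and not by gene. Instead, the promoters of the first 3 genes with the same order of signals in the promoter count table (described further down) are printed, each from 250 bases before to 50 after the start of the gene. The sequences are those of RefSeq on GRCm38.p6, a different build from the mm9 positions of the regions. Capitals mark AGGAAGT or its reverse complement ACTTCCT, a core bound by ETS factors such as PU.1 of myeloid cells. C1qb is at chr4:136886151-136886450 (minus strand), Slfn2 at chr11:83064862-83065161 (plus strand) and Fyb at chr15:6579597-6579896 (plus strand).
C1qb: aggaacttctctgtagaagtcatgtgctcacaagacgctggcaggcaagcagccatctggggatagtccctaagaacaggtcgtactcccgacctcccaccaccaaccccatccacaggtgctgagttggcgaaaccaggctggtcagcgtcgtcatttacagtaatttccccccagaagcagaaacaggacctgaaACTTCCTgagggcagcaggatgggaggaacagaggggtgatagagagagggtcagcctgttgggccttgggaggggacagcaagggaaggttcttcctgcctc
Slfn2: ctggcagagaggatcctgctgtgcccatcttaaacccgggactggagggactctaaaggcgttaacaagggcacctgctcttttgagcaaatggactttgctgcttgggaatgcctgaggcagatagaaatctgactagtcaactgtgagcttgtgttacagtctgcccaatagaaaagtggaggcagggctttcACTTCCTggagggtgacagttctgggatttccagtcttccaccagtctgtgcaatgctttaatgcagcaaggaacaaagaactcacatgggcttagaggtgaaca
Fyb: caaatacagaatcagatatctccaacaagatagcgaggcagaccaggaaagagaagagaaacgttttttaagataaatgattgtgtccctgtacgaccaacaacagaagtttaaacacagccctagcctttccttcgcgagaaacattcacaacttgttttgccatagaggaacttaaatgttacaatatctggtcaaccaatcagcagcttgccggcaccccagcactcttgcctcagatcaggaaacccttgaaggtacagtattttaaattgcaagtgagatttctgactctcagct

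The steps of the rule divided the 5230 regions lower in TAC TSA than in Sham TSA as follows. Of these, 663 (12.7%) overlapped a region lower in TAC TSA than in TAC Veh. A further 235 (4.49%) overlapped a region lower in TAC Veh than in Sham Veh, and 30 (0.574%) a region higher in TAC Veh. None of the 235 was among the 663, whereas 25 of the 30 were, and removing those 25 left the 638. The remaining 4327 regions overlapped none of the 3 lists. These counts describe how the regions were chosen and carry no test, and the lists share libraries: TAC TSA enters both lists that define the regions.

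The overlap that placed a region inside the rule covered at least 50% of the shorter of the pair at 620 of the 638. The smallest overlap was 18 bp, at chr13:63197137-63199237 (mm9, as for all regions here), followed by 19 bp at chr3:29857430-29858729 and 74 bp at chr5:115512528-115513141. Just outside the rule lay chr13:98414933-98415539, which was 12 bp from the nearest region lower than TAC Veh, chr9:14401646-14402996 at 23 bp and chr8:130927206-130927847 at 25 bp. On the side of the exclusion, chr11:30125338-30126218 was kept at 265 bp from a region lower in TAC Veh, and chr12:15767135-15767818 at 64 bp from a region higher in TAC Veh. The smallest overlap that led to exclusion was 356 bp, at chr8:86521184-86521939.

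Both lists outlined nearly the same stretch of chromatin at these regions. The median overlap was 1107 bp, which was 89.0% of the region (quartiles 74.2% and 98.5%) and 99.3% of the shorter of the pair. The centres of the paired regions lay a median of 133 bp apart, and within 250 bp at 439 of the 638 (68.8%). In 163 cases the region lower than TAC Veh lay wholly inside, in 126 it enclosed the whole region, and in 349 the pair overlapped partly. The match was nearly 1 to 1, since 632 regions had 1 partner and 6 had 2, and 637 regions lower than TAC Veh took part. The plot of list coverage around region centres shows this alignment.

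**Figure D1:**
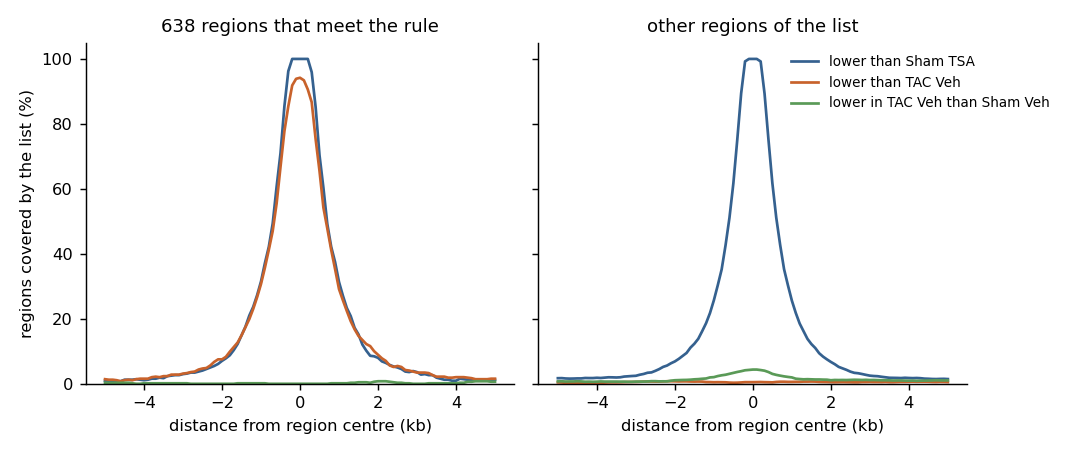
Percentage of regions covered by each list against the distance from the region centre in kb, for the 638 regions (left) and the other 4592 regions of the same list (right), 1 library per group. At the centre the list lower than TAC Veh covers 94.2% of the 638 regions and 0.501% of the others, a gap that the rule itself creates, and the orange and blue curves on the left have the same width.

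The regions were 427 to 7791 bp wide, with a median of 1346.5 bp (quartiles 931 and 2212 bp), against 1217.5 bp (801 and 1983 bp) for the other 4592 regions of the list. They cover 1116147 bp, or 13.2% of the bases of the list. Their partners had a median width of 1329.5 bp, and the 2719 regions lower than TAC Veh that took no part had a median of 999 bp. Regions lower after overload with either injection, the 235 set apart above, were wider, with a median of 1731 bp. The widest was chr2:31621993-31629783, with 7791 bp. It was followed by chr15:58807666-58814614 (6949 bp), chr6:88697010-88703915 (6906 bp), chr4:42038728-42045617 (6890 bp) and chr13:56211640-56218355 (6716 bp). In these broad regions the share also lower than TAC Veh ranged from 24.3% of the bases on chromosome 15 to 99.1% on chromosome 4.

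Each region carries a score from the authors' caller, which is their value, starts at 40 and is used here to rank regions within a list. Whether scores of different lists share a scale is not given in the sources used here, so scores set side by side are printed numbers only. The score belongs to the same comparison as the rule, so its values are a description. Against Sham TSA the scores of the 638 regions ran from 40.02 to 394.4 with a median of 56.2, and those of the other regions from 40 to 341.68 with a median of 49.1. Scores under 50 were held by 34.3% of the 638 and 52.9% of the others. Of the 203 regions of the list that scored at least 100, 65 (32.0%) met the rule, against 12.2% of the list. Among the 100 top-ranked regions 32 met it, beside 3 that were lower after overload with either injection.

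The share that met the rule was 6.31% in the lowest decile of score (33 of 523) and 25% in the highest (131 of 523). By width it was 5.16% in the narrowest decile and 13.2% in the widest. Score and width are related across the list (Spearman's rho 0.32 over 5230 regions, which share libraries). The list lower than TAC Veh showed the same feature from its own side. There, 637 of 3356 regions (19%) overlapped 1 of the 638, and the share was 11.9% in its lowest and 33.3% in its highest decile of score.

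**Figure D2:**
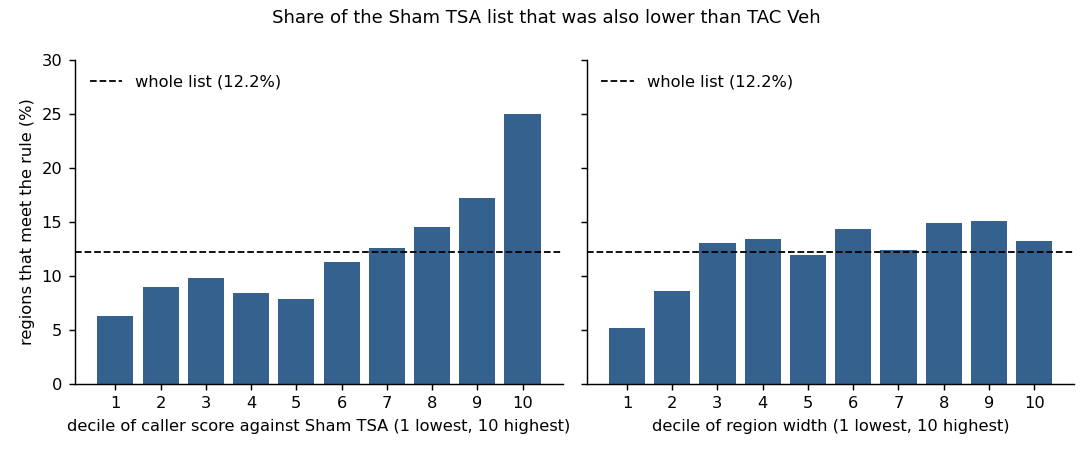
Percentage of regions lower in TAC TSA than in Sham TSA that meet the rule, by decile of the authors' caller score (left) and of width (right), 523 regions per bar. The dashed line is the share in the whole list (12.2%), and the bars by score go from 6.31% to 25% while those by width stay at or below 15.1%.

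Within the 638 regions the score against Sham TSA was weakly related to the score against TAC Veh. Pearson's r of the log2 scores was 0.24 and Spearman's rho 0.19 over 638 regions, all of which share the TAC TSA library. The rule admits only regions that scored at least 40 in each list, which cuts off the lower range of both scores. How closely the scores go together without that limit cannot be read from these values. The score was higher against Sham TSA at 341 regions (53.4%), and 16 regions scored at least 100 in both lists. The highest score against TAC Veh, 231.87, was at chr10:127028196-127031082, which scored 42.66 against Sham TSA. On chromosome 19 the neighbours chr19:12535564-12536681 and chr19:12537209-12539678 shared a single partner that scored 169.5.

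**Figure D3:**
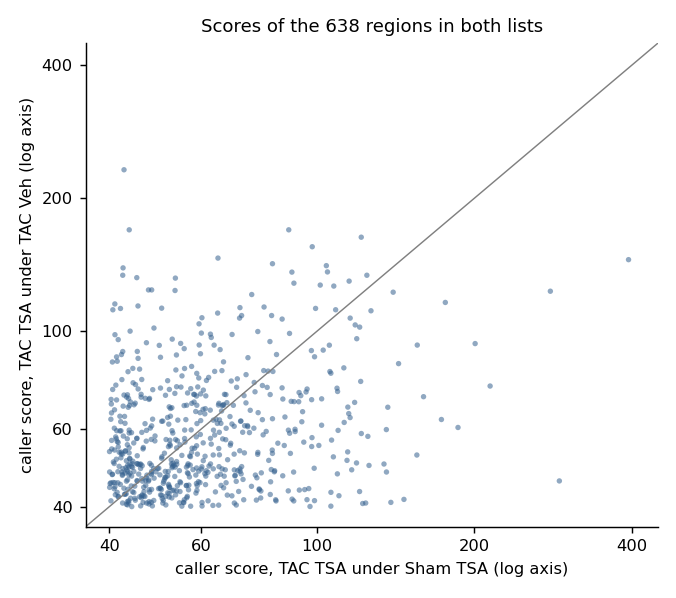
Caller score against Sham TSA (horizontal, log axis) and against TAC Veh (vertical, log axis) for the 638 regions, 1 point per region, with the line of equal scores. Points spread to both sides of the line, and 394.4 against 145.07 is the pair of scores of the point farthest to the right.

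By score, the first region was chr13:120275791-120278857, 3067 bp wide, which ranked 1 of 5230 against Sham TSA (394.4) and 18 of 3356 against TAC Veh (145.07). The region chr4:136440317-136442323 scored 279.42 and 123.05 and overlapped 2 regions lower than TAC Veh. The widest region, chr2:31621993-31629783, scored 290.73 against Sham TSA and only 45.73 against TAC Veh. High scores in the 2 lists thus fell together at the first of these and not at the last.

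The other 7 of the 10 highest scores against Sham TSA were spread over 6 chromosomes. They were chr13:112475175-112476255 (214.25, and 75.03 against TAC Veh), chr4:126698418-126703486 (200.56 and 93.63) and chr6:108373511-108377612 (185.97 and 60.44). Then came chr19:11592715-11594713 (175.86 and 116.05), chr15:66642547-66644974 (172.86 and 63.01), chr6:128843431-128844332 (159.76 and 70.97) and chr8:73136964-73142806 (155.4 and 92.9). At all 10 the score was higher against Sham TSA than against TAC Veh, which their choice by the score against Sham TSA favours. At the lower end, chr5:134622745-134623904 scored 40.02, and chr9:103114888-103115833 and chr13:41073747-41075638 both scored 40.04. No region scoring under 40 stands in the list.

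Every autosome held such regions, from 16 on chromosome 16 to 46 on chromosome 7. As a share of the regions of the list on the same chromosome, they ranged from 8.42% (16 of 190, exact binomial 95% interval 4.89 to 13.3) on chromosome 16 to 16.9% (28 of 166, 11.5 to 23.4) on chromosome 19. Chromosome 7 had 16.3% (46 of 283, 12.2 to 21.1). All 19 intervals included the share of the whole list, 12.2%, and they treat regions as independent, which neighbours are not. The median score per chromosome lay between 50.48 on chromosome 3 and 72.09 on chromosome 12.

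**Figure D4:**
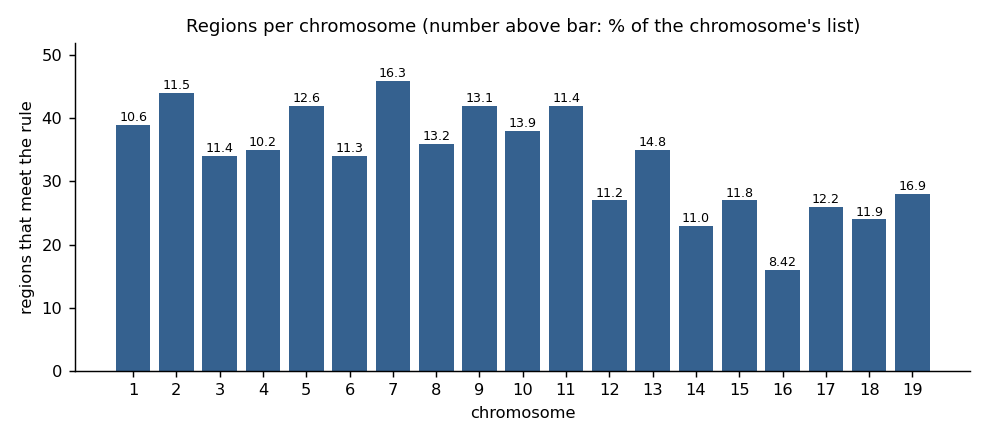
Number of the 638 regions on each autosome (bars), with the percentage of that chromosome's regions lower in TAC TSA than in Sham TSA printed above. Counts run from 16 to 46 and percentages from 8.42 to 16.9.

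Most of the regions stood alone. The median gap between neighbours was 1.97 Mb, and 520 of the 638 had no other member within 100 kb. Another of the 638 lay within 100 kb of 118 regions (18.5%), and of 602 of the other 4592 regions of the list (13.1%). Any region of the list lay that near to 64.9% of the 638 and 64.3% of the others. In 48 places 2 regions lay within 100 kb of each other, and in 7 places 3 or more did, which together held 22 regions.

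The largest such group, with 4 regions, spanned 184 kb at chr11:114705037-114889015. Its scores against Sham TSA were 40.85, 105.72, 97.57 and 59.3 from left to right, and 43.9, 80.93, 54.72 and 48.14 against TAC Veh. The densest group of 3 spanned 34.6 kb at chr3:59032405-59067000, with scores of 47.75 to 80.74 against Sham TSA. A second covered 40.4 kb at chr10:117296897-117337279, with scores of 42.15 to 46.54.

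On chromosome 12, 3 regions lay within 73.7 kb at chr12:80894144-80967815, with scores of 43.64 to 76.89. The group at chr15:78073361-78157733 scored 62.44 to 81.77 against Sham TSA and 98.35 to 108.38 against TAC Veh, where its first 2 regions share 1 partner. Between its members lies chr15:78140306-78144886, which scored 341.68 against Sham TSA and 149.9 against TAC Veh. That region was left out of the rule because it was also higher in TAC Veh than in Sham Veh (44.91). The 2 loosest groups of 3 spanned 101 kb at chr8:90765220-90866489 and 152 kb at chr17:84334642-84486885. On chromosome 8 the scores against Sham TSA ran from 40.12 to 81.17, and on chromosome 17 from 41.4 to 106.19.

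The median distance from the 638 regions to a region lower in TAC Veh was 164 kb, and to one higher in TAC Veh 495 kb. Within 10 kb of a region lower in TAC Veh were 33 of the 638 (5.17%), against 8.22% of the other regions that did not overlap one. Within 10 kb of a region higher in TAC Veh were 19 (2.98%), against 0.877% of the others. The TAC Veh library enters both the rule and the lists used for these distances. The choice of regions therefore favours such differences, and they were not tested. No region of the 638 overlapped one that was higher in TAC TSA than in Sham TSA or in TAC Veh.

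The lists hold no read counts, so the level of acetylation in each of the 4 libraries can be given only at promoters, from the table of raw counts per RefSeq promoter. Which of these promoters lie in the 638 regions was not determined here. Total promoter counts were 6842296 in TAC TSA, 8873302 in TAC Veh, 9905553 in Sham TSA and 9612616 in Sham Veh, so the library that is low at these regions was also the shallowest. Counts were scaled by TMM, and log2 ratios follow with exact 95% intervals that cover counting error only. A promoter was called lower when it was at least 1.5-fold lower and its interval excluded equality.

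By this measure 47 of 22835 promoters (0.206%) were lower in TAC TSA than in Sham TSA and 75 (0.328%) lower than in TAC Veh. Both held for 15 (0.0657%). Of these, 11 (0.0482%) were also not called in either direction between TAC Veh and Sham Veh, after the rule for regions. Not called does not mean equal: C1qb, Fyb, Ccl9 and Ptprc fell short of 1.5-fold there, but their intervals lay above 0. Called in that comparison were 0.565% of promoters on the lower side and 1.90% on the higher side. Higher calls of TAC TSA were far more common, with 7.16% against Sham TSA, 4.04% against TAC Veh and 6.42% against Sham Veh. The number rests on the scaling. It was 10 with DESeq2 size factors, 79 with a loess on mean count and 2750 when libraries were scaled on the receptor genes of smell and pheromone sensing. Those 1278 promoters of olfactory and vomeronasal receptors held 0.663% of counts in TAC TSA, 0.495% in TAC Veh, 0.418% in Sham TSA and 0.413% in Sham Veh.

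Weak promoters had relatively more reads in TAC TSA and strong ones fewer. The median log2 ratio of TAC TSA over Sham TSA was 0.67 in the first decile of promoters by mean count, the weakest, and −0.12 in the last, and that of TAC TSA over TAC Veh was 0.42 and −0.07. The part of this trend, and of depth, in the region lists was not tested. The 11 promoters had mean counts in the second to the eighth decile, with 1 in the eighth.

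Of the 11 genes, 2 stand in the marker lists used here, C1qb among 14 measured macrophage genes and Ptprc among 9 common leukocyte genes. C1qb, a subunit of the complement starter C1q that macrophages secrete, had 99 counts in TAC TSA, 228 in TAC Veh, 280 in Sham TSA and 200 in Sham Veh. It was 2.05-fold lower in TAC TSA than in Sham TSA (log2 ratio −1.04, −1.39 to −0.70) and 1.82-fold lower than in TAC Veh (−0.86, −1.22 to −0.52). Slfn2, of the schlafen family active in lymphocytes and monocytes, had 237, 474, 582 and 485 counts in the same order of libraries. Its log2 ratios were −0.83 (−1.06 to −0.62) and −0.66 (−0.90 to −0.44). In whole tissue, fewer cells of a type and less acetylation per cell cannot be told apart.

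Fyb, an adaptor of T cell and platelet receptors, had 73 counts in TAC TSA, 154 in TAC Veh, 168 in Sham TSA and 126 in Sham Veh. Lcp2, which encodes the adaptor SLP-76, had 75, 156, 170 and 136, and Clec4a1, a C-type lectin of myeloid cells, 68, 143, 163 and 126. Cd300lb, a receptor of myeloid cells, had 56, 115, 119 and 114, and Ptprc, the common leukocyte phosphatase CD45, 50, 99, 118 and 74. In these 5 the TAC TSA library was also the lowest of the 4 after scaling, with log2 ratios from −0.80 to −0.62 over Sham TSA and from −0.74 to −0.64 over TAC Veh.

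Ccl9, a chemokine of macrophages, had 49 counts in TAC TSA, 98 in TAC Veh, 108 in Sham TSA and 75 in Sham Veh. Msr1, the macrophage scavenger receptor, had 36, 71, 75 and 53, and its ratio over Sham TSA (−0.59, −1.21 to −0.01) fell to −0.58 and short of 1.5-fold with DESeq2 size factors. The interferon gene Ifna13 had 25, 53, 58 and 57, and the predicted gene Gm4951 63, 129, 151 and 117. Ifna13 is 1 of a cluster of nearly identical genes, among which reads can be split, so its values are uncertain. Slfn2 was short of 1.5-fold against TAC Veh with the loess (−0.58). Ratios of the 11 had intervals close to 0 where counts were low, as for Ifna13 over TAC Veh (−0.73, −1.50 to −0.04).

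**Figure D5:**
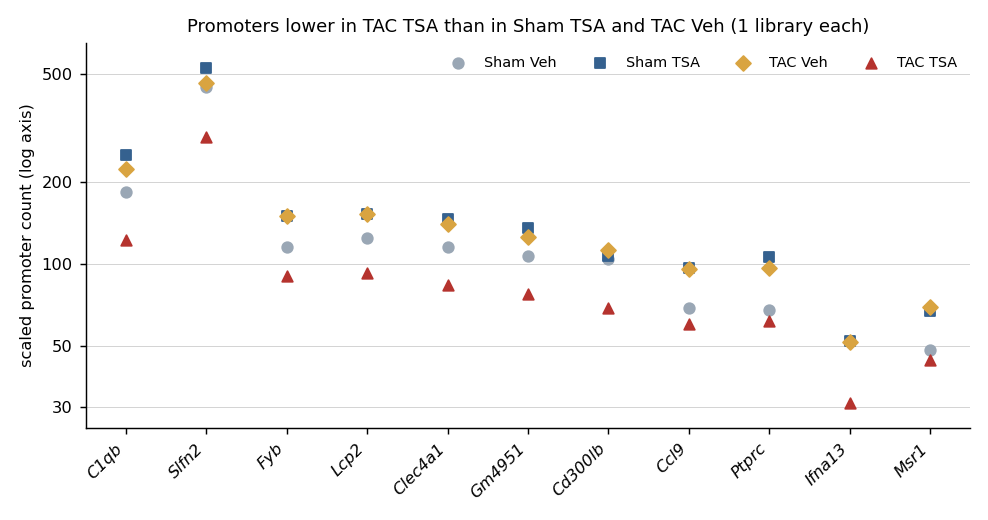
Promoter counts scaled by TMM (log axis) of the 11 genes, 1 point per library. The genes were called lower in TAC TSA than in both Sham TSA and TAC Veh, and were not called between TAC Veh and Sham Veh. TAC TSA (triangles) is the lowest point for all 11 genes, and Sham Veh (circles) lies below both Sham TSA and TAC Veh for C1qb, Fyb, Lcp2, Ccl9, Ptprc and others.

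The Sham Veh library, which the rule does not set against TAC TSA, lay between the extremes for most of these genes. Against Sham Veh, 3 of the 11 were called lower in TAC TSA, beside 14 of all 22835 promoters (0.0613%). The 11 were selected for low values in the same TAC TSA library, which favours such calls, so this count is a description only. Those called were Slfn2 (−0.60, −0.84 to −0.38), Cd300lb (−0.59, −1.09 to −0.12) and Ifna13 (−0.74, −1.50 to −0.06). C1qb was at −0.58 (−0.95 to −0.23), just short of 1.5-fold. Ptprc was at −0.13 (−0.69 to 0.40), Msr1 at −0.12 (−0.78 to 0.51), Ccl9 at −0.18 (−0.74 to 0.35) and Fyb at −0.36 (−0.80 to 0.07). For these 4 genes a difference between TAC TSA and Sham Veh was not detectable at this depth with TMM scaling. Receptor-promoter scaling moves the median of all genes in this comparison to −0.63.

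A further 4 promoters were lower in TAC TSA against both controls but were left out because they were higher in TAC Veh than in Sham Veh, and 2 of them are microRNA genes. Mir21a, whose product is known to rise in stressed heart and fibroblasts, had 259 counts in TAC TSA, 532 in TAC Veh, 566 in Sham TSA and 347 in Sham Veh. Mir223, a microRNA of myeloid cells, had 28, 69, 80 and 40, and the transcript F630028O10Rik 22, 59, 82 and 39. Serpina3i, of the serine protease inhibitor family, had 52, 112, 109 and 70. Sham TSA was called higher than Sham Veh at all 4, and at 0.574% of all promoters, with 0.578% lower. The 4 were selected for a high value in Sham TSA and a low value in Sham Veh, each against a TAC library. That selection favours this call, so it is a description only. In TAC TSA over Sham Veh, Mir21a was at 0.01 (−0.23 to 0.24) and Mir223 at −0.08 (−0.84 to 0.65). The mature sequences (RefSeq, GRCm38.p6) show which microRNAs these loci make, with the seed, bases 2 to 8, in capitals.
mmu-miR-21a-5p: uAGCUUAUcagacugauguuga
mmu-miR-223-3p: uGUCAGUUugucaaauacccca

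Lists of cell type markers gave the wider setting. Of 14 measured macrophage promoters 11 had both ratios of TAC TSA below 0, where 38.0% of all promoters did. Their medians were −0.38 over Sham TSA and −0.31 over TAC Veh, with −0.01 and 0.00 over all promoters. C1qb was the only member called in both, against a background of 0.0657%. Ctss, the lysosomal protease cathepsin S, was called against TAC Veh alone (−0.83), and was called higher in TAC Veh than in Sham Veh (0.60). Over Sham TSA and TAC Veh, C1qa was at −0.40 and −0.50 and C1qc at −0.17 and −0.29, neither called. Cx3cr1 (0.04 and 0.03) and Ms4a7 (0.15 and 0.25) had both ratios above 0, and Cd163 was at −0.41 and 0.44. The summed scaled count of the list was 1931 in TAC TSA, 2379 in TAC Veh, 2468 in Sham TSA and 1998 in Sham Veh. It was thus nearly equal in TAC TSA and Sham Veh.

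All 9 common leukocyte promoters had both ratios below 0 (medians −0.28 and −0.40), and Ptprc was the member called in both. Over Sham TSA, however, Itgb2 was level at −0.00 (−0.36 to 0.35), and only Ptprc, Coro1a and Ikzf1 had intervals below 0. Ikzf1, a transcription factor of lymphocytes, was called against TAC Veh alone (−0.70). Their summed scaled counts were 1239 in TAC TSA, 1627 in TAC Veh, 1479 in Sham TSA and 1283 in Sham Veh. Interferon-stimulated genes had medians of −0.33 over Sham TSA and −0.14 over TAC Veh. Of these 16, Ifit3 (−0.61), Iigp1 (−0.66) and Rtp4 (−0.62) were called against Sham TSA and none against TAC Veh. Both ratios were below 0 for 12 of the 16. With the loess the medians over Sham TSA and TAC Veh were −0.46 and −0.37 for macrophage, −0.36 and −0.48 for leukocyte and −0.22 and −0.09 for interferon-stimulated genes.

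Both ratios were below 0 for 7 of 10 fibroblast markers (70.0%), 4 of 9 endothelial, 2 of 5 smooth muscle, 0 of 10 cardiomyocyte and 0 of 9 lymphocyte markers, and differences between lists were not tested. Lymphocyte promoters had medians of 0.23 over Sham TSA and 0.32 over TAC Veh, which were 0.06 and 0.12 with the loess. In the same order cardiomyocyte markers had medians of −0.01 and 0.68, fibroblast markers −0.05 and −0.27, endothelial markers −0.09 and 0.04 and smooth muscle markers 0.01 and −0.05. No member of these 5 lists was called lower in both, and 1 fibroblast marker was called lower than TAC Veh. With receptor-promoter scaling, which shifts the median of all genes by −0.61 over Sham TSA and −0.38 over TAC Veh, the lymphocyte medians were −0.36 and −0.07 and the smooth muscle ones −0.58 and −0.43. The cardiomyocyte median over Sham TSA then fell to −0.60, and was 0.10 with the loess. The endothelial median over Sham TSA was 0.03 with the loess, and the smooth muscle one −0.02. Whether the cell makeup of the ventricles differed was not tested.

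Promoters with a RefSeq sequence were searched for short motifs on both strands, as a description of letters and not of sites. AGGAAGT was found in 3 of the 9 promoters of the 11 genes with a sequence (C1qb, Slfn2 and Ptprc) and in 1539 of 17109 promoters of measured genes. In C1qb it begins at base 198 and in Slfn2 at base 196, counted from 1 at the 5′ end of the window. The longer PU.1 form GAGGAAGT, which contains it, was in none of the 9 and in 2.85% of all. The core of the interferon-stimulated response element was in none of the 9 and in 3.37% of all. TATAAA was in 4 of the 9 (Ccl9, Cd300lb, Ifna13 and Ptprc) and in 12.6% of all.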

How the data were processed

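The authors deposited 6 lists of regions that differ between 2 libraries, each with a caller score per region (at least 40), and a table of raw read counts per RefSeq promoter. The submitters' processing notes name, without roles, MACS 1.4.1, BWA 0.5.9 and the build mm9. How promoters were defined, duplicates handled or input used is not given in the sources used here. Per the labels' protocols, libraries had 15 PCR cycles.

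Regions and lists were chosen with earlier results of these data known. Overlaps needed 1 bp on chromosomes 1 to 19. Regions named are the 10 highest scores, the 5 widest, the largest groups within 100 kb and those at the limits of the rule. Of 31594 RefSeq IDs 98.5% matched a GRCm38.p6 symbol, which was used for names only. The ID with the highest mean count stood for a gene, and 22835 genes whose counts averaged 10 or more entered. Promoters named are all 11 with the pattern and the members of 8 marker lists given with their values. The 4 promoters left out, the comparison with Sham Veh, the motifs and the microRNA sequences were chosen after the values were seen.

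Counts were scaled by TMM (edgeR 4.0.16, R 4.3.3). DESeq2 1.42.0 size factors, limma 3.58.1 loess and receptor promoters were alternatives. Log2 ratios add 0.5 to each count, and intervals are Clopper-Pearson, treating PCR reads as independent. As each condition had 1 library, conditions were not tested against each other. Overlap and ratio steps were tested on simulated data. Scripts ran in Python 3.11.15 (scipy 1.17.1, pandas 2.3.3).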

Additional observations from a re-analysis of the deposited data

Results flagged for a closer look

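At 4 of the 11 promoters the ratio of TAC over Sham lay on opposite sides of 0 with TSA and with vehicle, both intervals leaving out 0 (for C1qb under vehicle by less than the rounding shown). C1qb was at −1.04 under TSA and 0.28 (0.00 to 0.56) under vehicle, Fyb at −0.74 and 0.38 (0.03 to 0.73), Ccl9 at −0.67 and 0.48 (0.03 to 0.93), and Ptprc at −0.77 and 0.51 (0.06 to 0.97). Each value compares 1 library with 1 library, the 11 were selected for a low ratio under TSA, and the difference between the 2 ratios was not tested.

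Among the regions, 30 of the 5230 lower in TAC TSA than in Sham TSA were higher in TAC Veh than in Sham Veh, so that the 2 comparisons of surgery went opposite ways. The highest score among the 25 of them that were also lower than TAC Veh was 341.68, at chr15:78140306-78144886, followed by 307.97 at chr9:45051766-45055950. This difference was not tested.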

How the results depend on the processing

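The number of regions stayed within 1.5 times of 638 under every alternative but the score limit. Demanding at least the median score in both lists left 286 regions, 10.9% of the list so limited, with a median width of 1708.5 bp, as fewer regions entered. The share of the list was 9.60% with an overlap of at least 90% of the shorter region and 11.2% with no TAC Veh region within 10 kb, against 12.2%. Counted from the list lower than TAC Veh, 639 regions met the mirrored rule. With chromosomes X and Y, an alternative chosen after seeing the data, there were 653. The 11 promoters became 197 when a difference of 25% in place of 50% was asked (8 of the 11 among them, since TAC Veh over Sham Veh was then called for the others) and 1 at a 2-fold threshold (none of the 11). They became 79 with the loess (10 of the 11), 2750 with receptor-promoter scaling (11 of the 11; chosen after seeing the data), 10 with DESeq2 (10 of the 11) and 13 without the filter on low counts. Under each of the 3 other scalings 33 ratios of the 11 promoters were recomputed. DESeq2 ended 1 call (Msr1 over Sham TSA) and the loess 1 (Slfn2 over TAC Veh), and no called ratio changed sign. Leaving out a replicate was not possible with 1 library per group. No paired analysis was possible because each group holds 1 library. Intervals cover counting error, and 36 counts, as for Msr1 in TAC TSA, leave a ratio uncertain by more than 1 log2 unit from bound to bound.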

Other observations

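Chromosome X, which the rule leaves out, held 88 regions lower in TAC TSA than in Sham TSA, of which 15 (17.0%) met the same conditions. The first by score was chrX:98327392-98328302, with 109.85 against Sham TSA and 57.64 against TAC Veh. It was followed by chrX:71491984-71493249 (93.32 and 49.04) and chrX:163537076-163538219 (91.8 and 40.31). The region chrX:96212052-96213456 had the reverse order of scores, with 40.02 and 81.72. The 1 region of the list on chromosome Y did not meet the conditions.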
